A study of Mus musculus with 16 samples.

Results

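The genes described here are 39 genes of antioxidant defence, glutathione metabolism and metal binding, among them the NRF2 pathway, the thioredoxin and peroxiredoxin enzymes, the glutathione S-transferases, the ferritins and the metallothioneins. They were chosen by name, as the lines of the expression tables whose gene symbol was on the list, and each of the 39 was found on 1 of the 55471 lines of the day 5 table and 1 of the 55471 lines of the day 7 table. The cells were neural stem cells (NSC) from cortices of C57BL/6 mouse embryos at E15-16, grown with FGF2 as a monolayer and switched to a differentiation medium 5 d after seeding. They carried a lentivirus that expressed either a scrambled shRNA (shRNA-CON) or a shRNA against the long noncoding RNA RUS (shRNA-RUS), added 1 d after seeding, and no untransduced cells were among the groups. PolyA RNA of 4 groups was sequenced, with 4 libraries each: shRNA-CON and shRNA-RUS on day 5, and shRNA-CON and shRNA-RUS on day 7. A single shRNA against RUS was used, the embryos were pooled and of mixed sex, and the cells had been passaged, which limits what 4 libraries of a group can represent.

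Cells that respire and divide produce superoxide and peroxides. Superoxide dismutases turn superoxide into hydrogen peroxide, which catalase breaks down directly and which glutathione peroxidases and peroxiredoxins reduce with glutathione or thioredoxin as partner. The transcription factor NRF2 (Nfe2l2) is held low by KEAP1 and, when released, binds antioxidant response elements of many of these genes, whereas metallothioneins are small cysteine-rich proteins that bind zinc and copper and are switched on through metal response elements. In the brain, glutathione, metallothioneins and many of the detoxifying enzymes are known to be more abundant in astrocytes and radial glia than in neurons.

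Values are TPM, which the authors computed as the abundance of a gene's transcripts relative to all transcripts after correction for length, divided by a factor per library; the quotient is called scaled TPM. The factor set the median gene of each library of a day to the same level and lay between 0.920 and 1.11 on day 5 and between 0.991 and 1.01 on day 7. The test was that of limma on the log2 of scaled TPM after 0.1 was added, over genes whose mean reached 0.1 TPM, and a gene was called when its Benjamini-Hochberg adjusted p over all genes tested was under 0.05. Fold changes are on that scale, shRNA-RUS over shRNA-CON unless days are compared, with limma's standard error after the ± sign. A pair of group means gives shRNA-CON first and carries the SD of 4 libraries (SD, n = 4). In the lists of 4 values, replicates 1 to 4 come in that order. Read numbers cannot be recovered from TPM and are unknown, and in bulk RNA fewer cells of a type and less RNA per cell cannot be told apart.

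RUS itself is listed as Gm20754, a lincRNA gene on chromosome 3 (73066316 to 73594830, plus strand, GRCm38). It was read at 0.216, 0.107, 0.171 and 0.154 scaled TPM in the libraries labelled shRNA-CON of day 5 and at 0.0543, 0, 0.128 and 0.317 in those labelled shRNA-RUS (log2 fold change -0.40 ± 0.44, adjusted p = 0.519). On day 7 the values were 0.706, 0.715, 0.258 and 0.543 with shRNA-CON and 0.542, 0.380, 0 and 0.0396 with shRNA-RUS (log2 fold change -1.28 ± 0.61, adjusted p = 0.114). These values are low, and some lie under the 0.1 that was added before the log2. The groups overlapped on both days, neither difference passed the test, and the library labelled shRNA-RUS replicate 4 of day 5 had the highest value of that day. The library factor of that replicate was 1.01, against 0.920 to 0.939 for the rest of its group and 1.02 to 1.11 for shRNA-CON. Among the 20 genes that rose on day 5, this library was the lowest of its group for 18. These genes were called in a test that used this library, and the share over all genes was not counted. Replicate 4 of shRNA-CON was the highest control for 13 of these 20. The library labelled shRNA-RUS replicate 4 lay on the side of its own group, outside the range of the controls, for Hmox1 (256 against 175 to 185 scaled TPM), Mgst1 (339 against 249.03 to 260), Ftl1 (1276 against 2194 to 2609) and Abcc1 (12.6 against 15.1 to 17.0), and the summed TPM of the 5 proliferation markers did not overlap between the groups of day 5 (297 to 342 with shRNA-RUS and 589 to 627 with shRNA-CON). These 4 genes were chosen after their values were seen. For 22 of the 39 genes the groups of day 5 overlapped. Among those, this library lay within the range of the controls for Sod1, Gpx1, Gpx4 and Blvrb. Leaving out replicate 4 of shRNA-RUS gave 23 genes that rose and 3 that fell, while the share of all genes called went from 14.8% to 17.4% for higher and from 17.9% to 20.3% for lower. Leaving out replicate 4 of shRNA-CON instead gave 18 genes that rose and 3 that fell, where 13.3% of all genes were called higher and 15.1% lower.

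All 39 genes passed the filter on low values and were tested on both days. On day 5, 20 of them were higher with shRNA-RUS, 3 were lower and 16 did not pass the test. Among all 22581 genes tested that day, 14.8% were called higher and 17.9% lower. On day 7, 13 of the 39 were higher, 17 were lower and 9 did not pass, against 23.4% called higher and 25.8% called lower of 24606 genes. Most of these genes are well expressed, and among genes averaging 10 TPM or more the shares were larger: 28.4% higher and 20.1% lower on day 5, and 37.0% higher and 34.7% lower on day 7. The median log2 fold change of the 39 was 0.26 on day 5, where that of all genes was -0.061, and -0.038 on day 7, where that of all genes was -0.029. The day 5 median of the 39 was 0.11 in TPM as deposited (all genes -0.21) and 0.086 under quantile normalization (all genes -0.00080), and the day 7 median was 0.0045 under quantile normalization. The libraries of both shRNAs did not overlap for 17 of the 39 genes on day 5 and for 30 on day 7. Of all genes tested, 32.8% did not overlap on day 5 and 47.0% on day 7, and of genes averaging 10 TPM or more 46.8% and 68.0%.

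The day 5 count depends on the scaling. In TPM as deposited the median gene differed by -0.21 on the log2 scale between the shRNAs on day 5, and 13 genes were then called higher and 5 lower (22.7% of all calls were higher, against 45.4% after scaling). Quantile normalization gave 11 higher and 4 lower, with 49.9% of all calls higher. Scaling to the 75th percentile gave 16 and 3, with 33.2% of all calls higher. Hmox1, Nqo1, Mgst1, Mgst3, Osgin1, Mt1, Gstm1 and Gpx8 were called higher, and Abcc1, Aox1 and Ftl1 lower, under all 9 other settings and with each library left out in turn. On day 7 the corresponding genes were Hmox1, Mgst1, Srxn1, Osgin1, Fth1, Abcc4, Txnrd1 and Keap1 among the higher and 14 of the 17 lower ones, with Gclc, Gpx4 and Gsr as the exceptions. Scaling to the 75th percentile gave 8 higher and 18 lower on day 7, without the calls of Cat, Gclm, Mgst3, Nfe2l2 and Slc7a11. Of all genes, 19.9% were then higher and 27.7% lower.

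**Figure D1:**
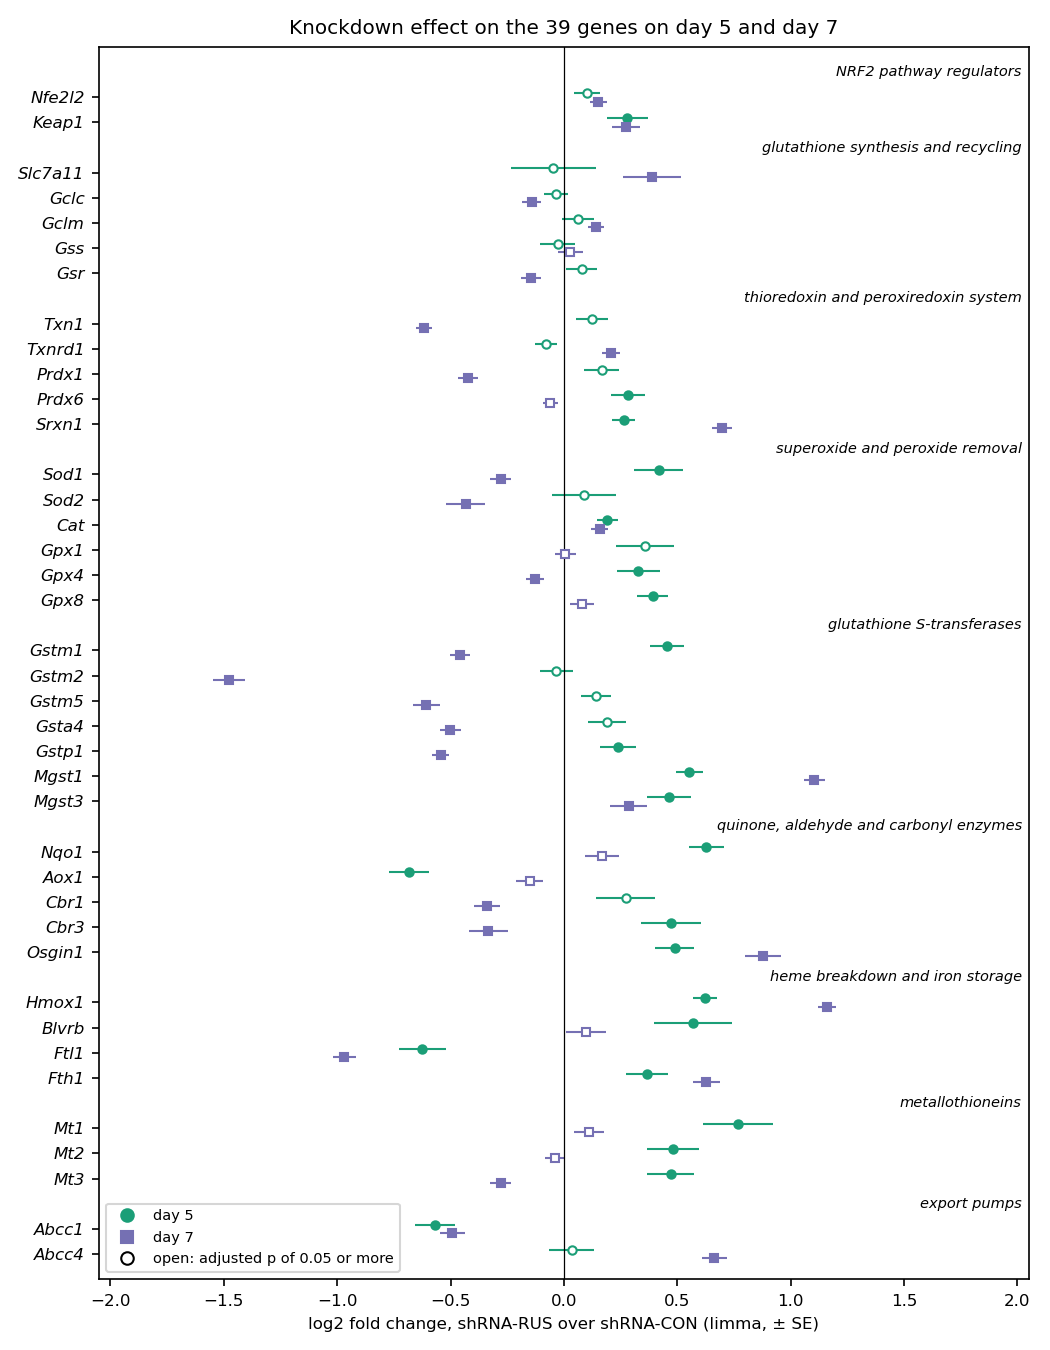
Log2 fold change of the 39 genes, shRNA-RUS over shRNA-CON, on day 5 (circles) and day 7 (squares), with limma's SE as bars and genes grouped by role; filled symbols passed the test. On day 5, 20 filled circles lie right of 0 and 3 left of it; on day 7, 13 filled squares lie right of 0 and 17 left, with Gstm2 at -1.48 and Hmox1 at 1.16 as the ends of the range.

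Some markers of other cell types and of dividing cells moved as well, and their part in the results on the antioxidant genes was not tested. The summed TPM of 5 proliferation markers (Mki67, Top2a, Pcna, Ccnb1 and Cdk1) ranged from 589 to 627 with shRNA-CON and from 297 to 342 with shRNA-RUS on day 5, and from 684 to 696 and from 271 to 306 on day 7; all 5 fell on both days. The summed TPM of 10 microglia markers ranged from 181 to 195 and from 158 to 212 on day 5, and from 460.1 to 515 with shRNA-CON and from 229.7 to 283 with shRNA-RUS on day 7, where all 10 fell. For 10 astrocyte markers the sums were 4554 to 4983 and 5585 to 5961 on day 5 and 3104 to 3182 and 3785 to 3972 on day 7, with 4 genes called higher and 2 lower on each day. The 9 markers of neural stem cells and radial glia summed to between 12767 and 14040.4 with shRNA-CON and to between 16503 and 17987 with shRNA-RUS on day 5, and to 7357 to 7795 and 7769 to 8503 on day 7. Of these 9, 3 were higher and 3 lower on day 5, with a median log2 fold change of -0.11, and 2 were higher and 5 lower on day 7, with a median of -0.15. The 8 markers of the oligodendrocyte lineage were between 242 and 316 and between 154 and 217 on day 5, and between 401 and 449 and between 263 and 289 on day 7. Those of neurons (9 genes) were between 495 and 614 and between 475 and 524 on day 5 and between 812 and 897 and between 812 and 941 on day 7, and those of fibroblasts and vessels (9 genes, 7 tested) were between 34.2 and 39.9 and between 26.7 and 38.9 on day 5 and between 22.4 and 24.9 with shRNA-CON and between 36.9 and 41.4 with shRNA-RUS on day 7, where 3 were higher and 1 lower. Of the defining markers of the labelled cell type, none was at 0 in any group.

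Of the regulators, Keap1 rose on both days and Nfe2l2 on day 7, each by less than 0.3 on the log2 scale. Nfe2l2, which encodes the transcription factor NRF2, stood on day 5 at 219, 241, 236 and 222 scaled TPM with shRNA-CON and at 261, 229.8, 242 and 253 with shRNA-RUS. On day 7 Nfe2l2 stood at 240.4, 238, 239 and 257 with shRNA-CON and 279, 275, 265 and 263 with shRNA-RUS. The libraries overlapped on day 5 (log2 fold change 0.10 ± 0.057, adjusted p = 0.203) and did not on day 7, when the gene rose by 0.15 ± 0.037 (adjusted p = 0.00681). Keap1, which encodes the adaptor that marks NRF2 for degradation, was read on day 5 at 25.6, 27.1, 29.7 and 29.7 with shRNA-CON and 32.2, 38.2, 36.3 and 29.7 with shRNA-RUS. Its day 7 values were 26.5, 27.9, 29.9 and 24.7 with shRNA-CON and 32.7, 32.2, 34.7 and 32.0 with shRNA-RUS. It rose on both days, by 0.28 ± 0.090 (adjusted p = 0.0407) and by 0.27 ± 0.060 (adjusted p = 0.00421). On day 5, replicate 4 of shRNA-RUS lay level with the highest controls for Keap1, and the call was lost under 6 of the 9 other settings and without any 1 of the 7 libraries other than that replicate (adjusted p from 0.0504 to 0.106). An exon of Keap1 overlaps the opposite-strand gene Gm16754, whose reads cannot be told apart without strand.

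Of the 5 genes of glutathione synthesis and recycling, none was called on day 5, and 2 were higher and 2 lower on day 7. Slc7a11 encodes the cystine importer that feeds glutathione synthesis, and was the gene with the lowest level of all 39 (1.59, 1.63, 1.42 and 1.38 scaled TPM with shRNA-CON and 1.90, 1.19, 1.11 and 1.76 with shRNA-RUS on day 5). On day 7 Slc7a11 was read at 1.81, 1.78, 1.88 and 2.51 with shRNA-CON and 2.58, 2.49, 2.57 and 2.83 with shRNA-RUS. The difference was -0.047 ± 0.19 (adjusted p = 0.876) on day 5 and 0.39 ± 0.13 (adjusted p = 0.0293) on day 7, and replicate 4 of shRNA-CON overlapped with shRNA-RUS on day 7; the call was lost under 2 of the 9 other settings and without replicate 1, 2 or 3 of shRNA-CON or replicate 1, 3 or 4 of shRNA-RUS (adjusted p from 0.0527 to 0.0778). Gclc, the catalytic subunit of the enzyme of the rate-limiting step of glutathione synthesis, had 95.3, 93.8, 98.3 and 91.6 with shRNA-CON and 93.0, 88.5, 89.5 and 99.0 with shRNA-RUS on day 5. On day 7 the values were 106, 107, 105 and 109.6 with shRNA-CON and 100.3, 101, 95.6 and 90.6 with shRNA-RUS, with all 4 shRNA-RUS libraries below the controls. The day 5 difference was -0.036 ± 0.052 (adjusted p = 0.638), and the gene fell by 0.14 ± 0.041 (adjusted p = 0.0164) on day 7. Gclm, the modifier subunit of the same enzyme, had 144, 142, 147 and 126 with shRNA-CON and 134, 149, 142 and 159.7 with shRNA-RUS on day 5. On day 7 Gclm had 127, 127, 117 and 127 with shRNA-CON and 135, 139, 140.1 and 136 with shRNA-RUS, with shRNA-RUS above the controls in all 4 libraries. Its difference was 0.064 ± 0.071 (adjusted p = 0.529) on day 5 and 0.14 ± 0.036 (adjusted p = 0.00887) on day 7, both under 0.15 in size. The day 7 call of Gclm was lost under 75th percentile scaling and that of Gclc without the trend of limma. Exons of Gclm overlap Gm17494 on the opposite strand and Gm6061 on the same strand. Of the other members, Gss (glutathione synthetase) had means of 36.5 ± 2.69 and 35.8 ± 3.01 (SD, n = 4) on day 5 and 30.04 ± 1.82 and 30.6 ± 1.66 on day 7 and was not called. Its exons overlap the opposite-strand genes Acss2, Gssos1 and Gssos2. Gsr (glutathione reductase) had 38.4 ± 1.89 and 40.6 ± 3.10 on day 5 and 31.4 ± 1.66 and 28.4 ± 0.449 on day 7, and fell on day 7. The call of Gsr was lost without replicate 1 or 3 of shRNA-CON or replicate 1 or 2 of shRNA-RUS (adjusted p from 0.0547 to 0.0657). It was also lost without the trend of limma and with the replicate number as a block.

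In the thioredoxin and peroxiredoxin system the members parted on day 7. Txn1, thioredoxin, was read on day 5 at 253, 299, 278 and 283 scaled TPM with shRNA-CON and 328, 299.7, 311 and 275 with shRNA-RUS. On day 7 Txn1 was read at 334, 316, 323 and 312 with shRNA-CON and 211, 209, 218 and 200.4 with shRNA-RUS. The groups overlapped on day 5 (0.13 ± 0.071, adjusted p = 0.213) and lay far apart on day 7, when Txn1 fell by 0.62 ± 0.036 (adjusted p = 1.10e-06). Txnrd1, the reductase that recharges thioredoxin, had 223, 228, 229 and 227 with shRNA-CON and 204, 217, 211 and 229 with shRNA-RUS on day 5. Its day 7 values were 162, 156, 161 and 149 with shRNA-CON and 173, 183, 185 and 184 with shRNA-RUS. It did not pass the test on day 5 (-0.078 ± 0.048, adjusted p = 0.252) and rose on day 7, with all 4 libraries above the controls (0.21 ± 0.039, adjusted p = 0.00153). In TPM as deposited and under quantile normalization it was called lower on day 5 (-0.24 in both, adjusted p = 0.0193 and 0.0215). Prdx1, a peroxiredoxin of the cytosol, had 1016, 1267, 1157 and 1164 with shRNA-CON and 1399, 1291, 1267 and 1203 with shRNA-RUS on day 5. On day 7 its values were 1155, 1095, 1066 and 1076 with shRNA-CON and 842, 854, 817 and 760.2 with shRNA-RUS. It was not called on day 5 (0.17 ± 0.079, adjusted p = 0.139) and fell on day 7 in all 4 libraries (-0.42 ± 0.044, adjusted p = 3.63e-05). Srxn1, the sulfiredoxin that repairs overoxidized peroxiredoxins, had 71.5, 74.0, 76.5 and 76.8 with shRNA-CON and 88.00, 95.01, 90.8 and 85.4 with shRNA-RUS on day 5. On day 7 Srxn1 had 50.0, 47.7, 49.1 and 52.5 with shRNA-CON and 76.0, 82.0, 84.8 and 80.7 with shRNA-RUS. The shRNA-RUS libraries lay above the controls on both days, by 0.26 ± 0.051 (adjusted p = 0.00383) and 0.70 ± 0.045 (adjusted p = 1.96e-06), although the day 5 call was lost in TPM as deposited (log2 fold change 0.11). Prdx6, a peroxiredoxin that uses glutathione, was the most abundant of all 39 genes on day 5, with means of 9469.7 ± 279 and 11517 ± 577 scaled TPM (SD, n = 4), and rose on that day; on day 7 the means were 4790.2 ± 147 and 4595 ± 79.1 and the difference was not called. The day 5 call was lost under 4 of the 9 other settings, 75th percentile scaling and quantile normalization among them, and without replicate 3 of shRNA-CON (adjusted p = 0.0519) or replicate 2 of shRNA-RUS (adjusted p = 0.0582). The near-copy of Prdx6, Prdx6b, stayed between 0.15 and 0.44 TPM.

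Of the 6 enzymes that remove superoxide and peroxide, 4 were higher and 2 not called on day 5, whereas on day 7, 1 was higher, 3 were lower and 2 not called. Sod1, the superoxide dismutase of the cytosol, had 527, 648, 607 and 670.2 scaled TPM with shRNA-CON and 869, 852, 896 and 667 with shRNA-RUS on day 5. On day 7 Sod1 had 631, 601, 628 and 547 with shRNA-CON and 491, 492, 509 and 489 with shRNA-RUS. It rose on day 5 by 0.42 ± 0.11 (adjusted p = 0.0164), with replicate 4 of shRNA-RUS within the controls, and fell on day 7 by 0.28 ± 0.047 (adjusted p = 8.09e-04) without overlap; the day 5 call was lost under 2 of the 9 other settings, quantile normalization (0.15) being 1 of them. Sod2, the dismutase of mitochondria, had 91.8, 114, 109 and 134 with shRNA-CON and 134, 131, 121 and 91.9 with shRNA-RUS on day 5. On day 7 Sod2 had 124, 135, 134 and 109 with shRNA-CON and 85.4, 94.8, 106 and 85.4 with shRNA-RUS. The day 5 libraries were intermixed (0.090 ± 0.14, adjusted p = 0.664), and on day 7 all shRNA-RUS libraries lay below the controls (-0.43 ± 0.088, adjusted p = 0.00255). Cat, catalase, had 94.8, 99.2, 97.7 and 100.2 with shRNA-CON and 118, 111, 111 and 108 with shRNA-RUS on day 5. Its day 7 values were 106, 104, 99.7 and 102 with shRNA-CON and 112, 116, 121 and 111 with shRNA-RUS. It rose without overlap on both days by a small amount, 0.19 ± 0.046 (adjusted p = 0.0112) and 0.16 ± 0.038 (adjusted p = 0.00700), and the day 5 call was lost under 4 of the 9 other settings, the 3 other scalings among them, and the day 7 call under 75th percentile scaling. Gpx1, the glutathione peroxidase of the cytosol, had 643, 741, 722 and 815 with shRNA-CON and 1054, 1031, 981 and 708 with shRNA-RUS on day 5. On day 7 Gpx1 had 437, 409, 435 and 386 with shRNA-CON and 413, 422, 433 and 405 with shRNA-RUS. Replicates 1 to 3 of shRNA-RUS stood above the controls on day 5 and replicate 4 among them, and the difference was not called (0.36 ± 0.13, adjusted p = 0.0616), nor was it on day 7 (0.0066 ± 0.045, adjusted p = 0.923). The day 5 difference was called without replicate 4 of shRNA-RUS (0.49, adjusted p = 0.00154) and under 1 of the 9 other settings, the filter at 1 TPM. Gpx4, the peroxidase of lipid hydroperoxides, had 835, 865, 927 and 971 with shRNA-CON and 1203, 1203, 1204 and 929 with shRNA-RUS on day 5. On day 7 Gpx4 had 791, 745, 764 and 693 with shRNA-CON and 678, 678, 689.9 and 692 with shRNA-RUS. It rose by 0.33 ± 0.096 (adjusted p = 0.0269) on day 5, where replicate 4 again lay among the controls, and fell by 0.13 ± 0.041 (adjusted p = 0.0280) on day 7, a direction that turned under quantile normalization (0.0045). The day 5 call was lost under 5 of the 9 other settings and the day 7 call under 3. Each of these calls was also lost without any 1 of the 6 libraries of that day other than the replicates numbered 4 (adjusted p from 0.0528 to 0.0736 on day 5 and from 0.0541 to 0.0723 on day 7). Gpx8, a peroxidase of the endoplasmic reticulum, had means of 199.96 ± 15.0 and 262 ± 15.4 on day 5, when it rose, and 146 ± 5.29 and 154 ± 10.6 on day 7, when it was called only without replicate 4 of shRNA-RUS (adjusted p = 0.0437).

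The glutathione S-transferases, which join glutathione to reactive compounds, were mostly lower on day 7. Of 7 members, 4 were higher and none lower on day 5, whereas on day 7 the 5 soluble ones (Gstm1, Gstm2, Gstm5, Gsta4 and Gstp1) were lower and both microsomal ones among the 39 genes (Mgst1 and Mgst3) were higher, the call of Mgst3 being lost under 75th percentile scaling. Gstm2 had 54.6, 65.0, 63.5 and 57.3 scaled TPM with shRNA-CON and 61.9, 62.0, 53.9 and 56.9 with shRNA-RUS on day 5. On day 7 Gstm2 had 39.03, 39.7, 36.3 and 36.1 with shRNA-CON and 13.1, 14.0, 15.1 and 11.99 with shRNA-RUS. The libraries were intermixed on day 5 (-0.033 ± 0.074, adjusted p = 0.771), although in TPM as deposited the gene was called lower (-0.19, adjusted p = 0.0492), and the day 7 change of -1.48 ± 0.072 (adjusted p = 4.38e-07) was the largest among the 39 genes on either day. Gstm5 had 204, 241, 224 and 232 with shRNA-CON and 256, 260.2, 249.2 and 228 with shRNA-RUS on day 5. Its day 7 values were 151, 135, 138 and 138 with shRNA-CON and 95.7, 99.3, 91.7 and 82.6 with shRNA-RUS. The day 5 difference was called only without replicate 4 of shRNA-RUS (0.14 ± 0.066, adjusted p = 0.133; 0.18, adjusted p = 0.0432, without it) and the gene fell on day 7 without overlap (-0.61 ± 0.060, adjusted p = 2.85e-05). Gsta4, an alpha-class enzyme that acts on lipid aldehydes, had 199.8, 265, 248 and 239.8 with shRNA-CON and 276, 272, 279 and 255 with shRNA-RUS on day 5. On day 7 Gsta4 had 227, 212, 213 and 217 with shRNA-CON and 148, 156, 165 and 145 with shRNA-RUS. Its day 5 difference was 0.19 ± 0.084 (adjusted p = 0.112) and its day 7 difference -0.50 ± 0.046 (adjusted p = 1.70e-05), with all shRNA-RUS libraries below the controls on day 7. Gstp1, the pi-class enzyme, had 315, 349, 344 and 336 with shRNA-CON and 403, 431, 421 and 339 with shRNA-RUS on day 5. On day 7 Gstp1 had 258, 241, 237 and 234 with shRNA-CON and 167, 166, 169 and 163 with shRNA-RUS. It was called higher on day 5 by a small margin (0.24 ± 0.080, adjusted p = 0.0448), a call lost under 6 of the 9 other settings and without any 1 of the 7 libraries other than replicate 4 of shRNA-RUS (adjusted p from 0.0670 to 0.114), and fell on day 7 (-0.54 ± 0.036, adjusted p = 2.30e-06). Gstm1 had the highest level of the 7 transferases, with means of 2709.9 ± 100.3 and 3722 ± 309.7 scaled TPM on day 5 (SD, n = 4), when it rose, and 1244 ± 58.3 and 905 ± 34.6 on day 7, when it fell. Reads of Gstm and Gstp genes can be shared with near-copies, of which Gstm3 stayed under 0.51 TPM and Gstp2 under 8.6 TPM. Exons of Gstm5 overlap the opposite-strand gene 4933431E20Rik.

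Mgst1, a transferase of the outer mitochondrial and endoplasmic reticulum membranes, stood on day 5 at 252, 259.8, 259.8 and 249.03 scaled TPM with shRNA-CON and at 409, 371, 382 and 339 with shRNA-RUS. On day 7 Mgst1 stood at 237, 223, 213 and 228 with shRNA-CON and 507, 459, 466 and 506 with shRNA-RUS. Every shRNA-RUS library lay above every control on both days, and the rise was 0.55 ± 0.061 (adjusted p = 1.87e-04) on day 5 and 1.10 ± 0.047 (adjusted p = 2.21e-07) on day 7. Mgst3 had means of 17.2 ± 1.57 and 23.8 ± 2.67 on day 5 and 14.0 ± 1.66 and 17.1 ± 0.747 on day 7, and rose on both days. The start of Mgst1 is shown as an example of an antioxidant response element core, for which the letters TGACNNNGC were searched on both strands of RefSeq promoter windows (build GRCm38.p6, 250 bases before to 50 after each start); the capitals mark the match, which begins at position -56, counted from +1 at the start, and reads on the opposite strand. The sequence is chr6:138140277-138140556, plus strand, 250 bases before and 30 after the start.
Mgst1: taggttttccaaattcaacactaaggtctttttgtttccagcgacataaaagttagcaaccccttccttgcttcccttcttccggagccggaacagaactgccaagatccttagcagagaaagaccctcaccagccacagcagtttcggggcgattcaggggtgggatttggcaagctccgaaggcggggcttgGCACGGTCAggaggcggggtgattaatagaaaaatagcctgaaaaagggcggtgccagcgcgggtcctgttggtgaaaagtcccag
Windows were found for 33 of the 39 genes, 43 windows in all, and this core was present in 11 of them (25.6%) against 12.4% of all 32851 windows. The 10 genes with a match were Nfe2l2, Srxn1, Gstm5, Gclm, Prdx1, Mgst1, Mt2, Txnrd1, Abcc4 and Sod1. A match is a run of letters and not a shown site of binding, and Hmox1 was among the 6 genes without a window. Nqo1 and Osgin1 had windows without a match, and another window of Mgst1 held none. A link between a match and the changes was not tested.

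Among the enzymes that reduce or oxidize quinones, aldehydes and carbonyls, changes went both ways. Nqo1, the quinone reductase that is a classic NRF2 target, had 16.3, 18.9, 17.9 and 17.7 scaled TPM with shRNA-CON and 29.9, 28.3, 24.4 and 27.2 with shRNA-RUS on day 5. On day 7 Nqo1 had 7.67, 6.46, 7.59 and 6.63 with shRNA-CON and 7.86, 7.84, 8.43 and 7.71 with shRNA-RUS. It rose on day 5 without overlap (0.63 ± 0.076, adjusted p = 3.17e-04); on day 7 shRNA-RUS was again above all controls, by a margin that did not pass the test (0.17 ± 0.075, adjusted p = 0.0946) except under quantile normalization (0.25, adjusted p = 0.0182). Osgin1, a growth inhibitor induced by oxidative stress, had 11.9, 11.5, 12.9 and 12.8 with shRNA-CON and 15.5, 19.7, 18.0 and 16.1 with shRNA-RUS on day 5. On day 7 Osgin1 had 7.89, 7.499, 7.53 and 6.37 with shRNA-CON and 12.6, 14.3, 12.9 and 14.2 with shRNA-RUS. All shRNA-RUS libraries were above the controls on both days, by 0.49 ± 0.086 (adjusted p = 0.00230) and 0.88 ± 0.079 (adjusted p = 1.56e-05). Aox1, aldehyde oxidase, had 16.1, 15.9, 16.4 and 14.9 with shRNA-CON and 8.69, 9.92, 9.30 and 11.5 with shRNA-RUS on day 5. Its day 7 values were 20.5, 19.0, 20.8 and 20.0 with shRNA-CON and 16.4, 18.0, 19.3 and 18.6 with shRNA-RUS. It fell on day 5 without overlap (-0.68 ± 0.088, adjusted p = 4.49e-04) and its day 7 difference was not called (-0.15 ± 0.059, adjusted p = 0.0579), although it was without replicate 3 of shRNA-RUS (-0.18, adjusted p = 0.0370) and under 3 of the 9 other settings. The carbonyl reductases were higher or not called on day 5 and fell on day 7: Cbr1 had means of 49.2 ± 6.20 and 59.7 ± 9.47 on day 5 and 56.7 ± 3.46 and 44.8 ± 2.80 on day 7. Cbr3 had 25.0 ± 2.64 and 35.0 ± 5.92 on day 5, when it rose, and 24.1 ± 3.11 and 19.0 ± 0.577 on day 7. The day 5 call of Cbr3 was lost in TPM as deposited and without replicate 1 or 2 of shRNA-CON or replicate 1, 2 or 3 of shRNA-RUS (adjusted p from 0.0569 to 0.0609), and Cbr1 was called higher on day 5 without replicate 4 of shRNA-RUS (adjusted p = 0.0132).

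**Figure D2:**
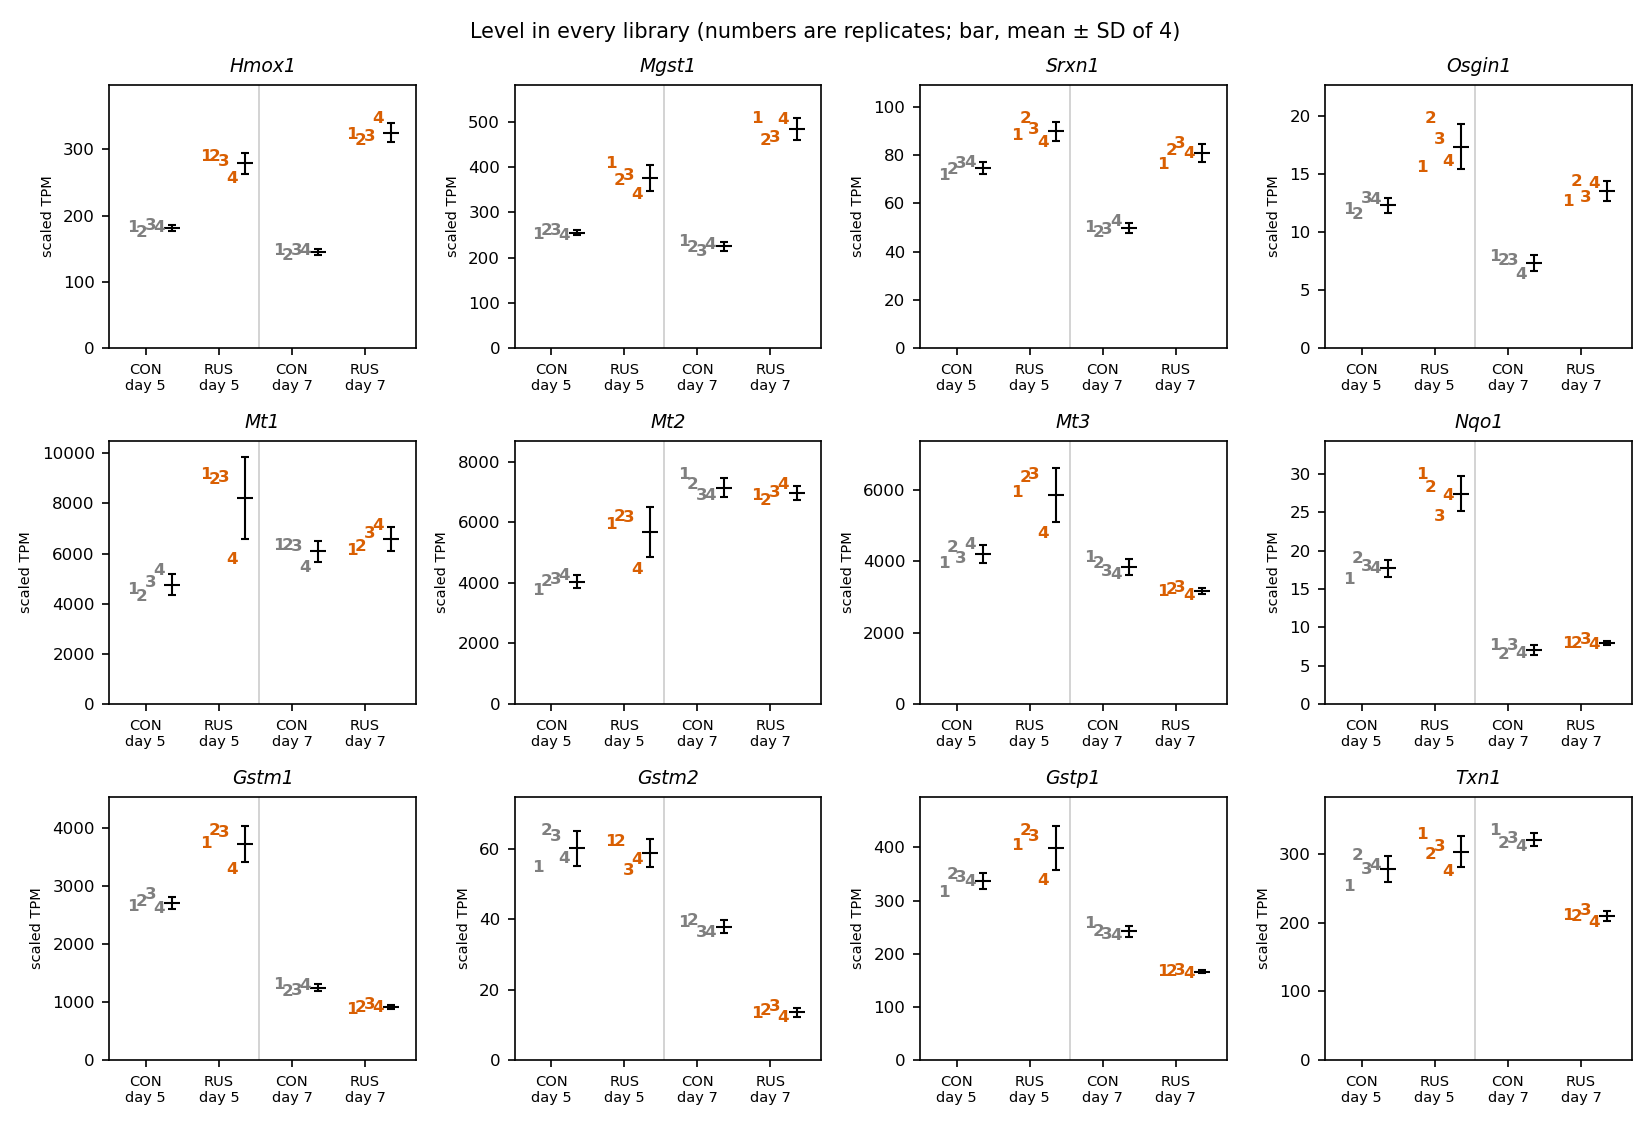
Scaled TPM of 12 genes in each of the 16 libraries, with linear axes from 0; each number is the replicate, grey for shRNA-CON and orange for shRNA-RUS, and the bar is the mean ± SD of 4. Hmox1, Mgst1, Srxn1 and Osgin1 lie above the controls on both days, Mt1, Mt2, Mt3, Nqo1 and Gstm1 lie above them on day 5, with replicate 4 of shRNA-RUS lowest of its group for the metallothioneins, and Gstm1, Gstm2, Gstp1, Txn1 and Mt3 lie below them on day 7.

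Of the 4 genes of heme breakdown and iron storage, Hmox1 and Fth1 rose and Ftl1 fell on both days. Hmox1, heme oxygenase, which splits heme into biliverdin, carbon monoxide and iron, stood on day 5 at 182, 175, 185 and 183 scaled TPM with shRNA-CON and at 289, 289, 281 and 256 with shRNA-RUS. On day 7 Hmox1 stood at 147, 139, 148 and 147 with shRNA-CON and 322, 313, 319 and 346 with shRNA-RUS. No shRNA-RUS library came near a control on either day, and the rise was 0.62 ± 0.053 (adjusted p = 5.67e-05) on day 5 and 1.16 ± 0.039 (adjusted p = 9.68e-08) on day 7. Blvrb, biliverdin reductase B, had 40.7, 52.7, 51.5 and 62.0 with shRNA-CON and 85.9, 87.5, 82.6 and 53.6 with shRNA-RUS on day 5. On day 7 Blvrb had 28.7, 24.0, 26.2 and 23.5 with shRNA-CON and 24.8, 25.6, 31.5 and 27.7 with shRNA-RUS. It rose on day 5 (0.57 ± 0.17, adjusted p = 0.0321), where replicate 4 of shRNA-RUS lay among the controls and the call was lost under 4 of the 9 other settings and without any 1 of the 6 libraries other than the replicates numbered 4 (adjusted p from 0.0608 to 0.0844), and was not called on day 7 (0.097 ± 0.088, adjusted p = 0.400).

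The ferritin chains, which build the shell that stores iron, moved apart. Fth1, the heavy chain, which oxidizes iron, had 6917, 7822, 7252 and 8233 scaled TPM with shRNA-CON and 9394, 10744, 10083 and 8762 with shRNA-RUS on day 5. On day 7 Fth1 had 3202, 3168, 2967 and 2816 with shRNA-CON and 4218, 4841, 4873 and 4859.6 with shRNA-RUS. It was above the controls in all libraries of both days and rose by 0.37 ± 0.093 (adjusted p = 0.0149) and 0.63 ± 0.061 (adjusted p = 2.33e-05); the day 5 call was lost without replicate 3 of shRNA-CON (0.35, adjusted p = 0.0501), without the filter and under quantile normalization, which gave 0.086. Ftl1, the light chain, which helps to form the iron core, had 2194, 2447, 2409.6 and 2609 with shRNA-CON and 1704, 1699, 1618 and 1276 with shRNA-RUS on day 5. On day 7 Ftl1 had 2689, 2455, 2449 and 2332 with shRNA-CON and 1253, 1238, 1359 and 1222 with shRNA-RUS. It was below the controls in all libraries of both days and fell by 0.62 ± 0.10 (adjusted p = 0.00163) and 0.97 ± 0.051 (adjusted p = 6.56e-07). The ratio of Ftl1 to Fth1 within a library does not depend on the factor of that library, though quantile normalization could change it. In TPM it was 0.317, 0.313, 0.332 and 0.317 with shRNA-CON and 0.181, 0.158, 0.161 and 0.146 with shRNA-RUS on day 5. On day 7 it was 0.840, 0.775, 0.825 and 0.828 with shRNA-CON and 0.297, 0.256, 0.279 and 0.251 with shRNA-RUS. The means were 0.320 ± 0.00853 and 0.161 ± 0.0148 on day 5 and 0.817 ± 0.0288 and 0.271 ± 0.0213 on day 7 (SD, n = 4), so the ratio was lower with shRNA-RUS on both days, with no overlap, and higher on day 7 than on day 5 with either shRNA. No test was made of the ratio, which was chosen after the values were seen. Reads of Ftl1 can be shared with processed copies, of which Ftl1-ps1 lay between 16.4 and 60.1 TPM and Ftl2-ps between 15.3 and 123 TPM, and its exons overlap Gm22133 and Gm10252. The copy Fth-ps2 stayed between 0.19 and 1.53 TPM.

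**Figure D3:**
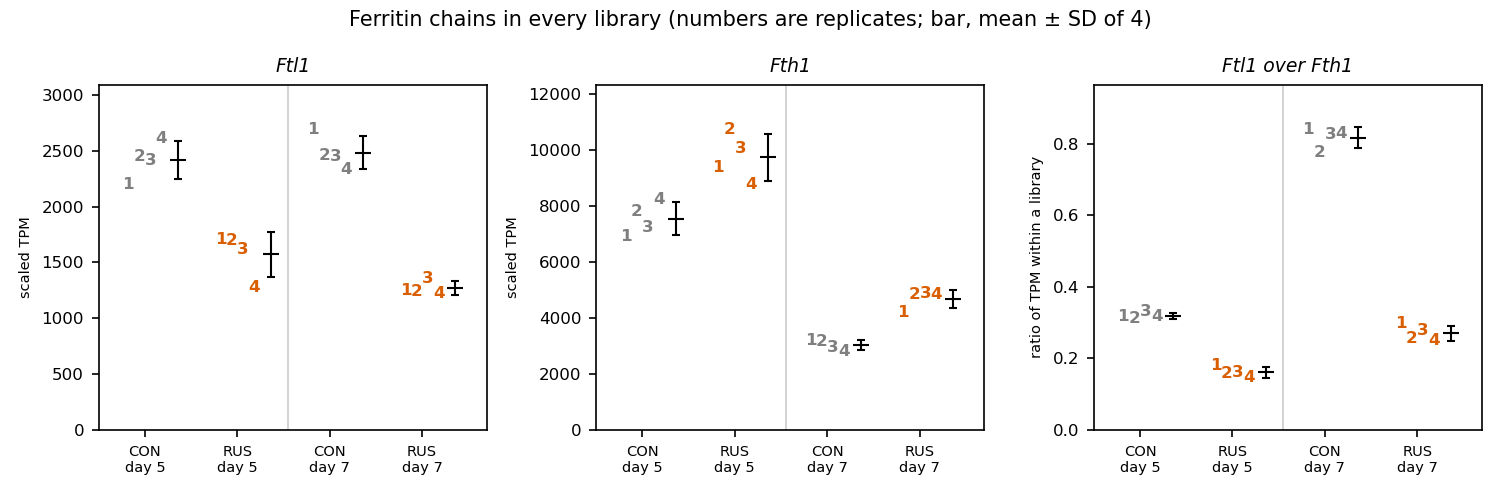
Scaled TPM of Ftl1 and Fth1 in every library, and the ratio of their TPM within a library, with axes from 0; numbers are replicates and the bar is the mean ± SD of 4. The ratio lies between 0.146 and 0.181 with shRNA-RUS and between 0.313 and 0.332 with shRNA-CON on day 5, and between 0.251 and 0.297 against 0.775 and 0.840 on day 7.

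The 3 metallothioneins, whose genes stand beside each other on chromosome 8 (Mt3 at 94152607 to 94154146, Mt2 at 94172664 to 94173568 and Mt1 at 94179082 to 94180327, all on the plus strand, GRCm38), were among the most abundant transcripts. Together they made up between 1.30% and 1.46% of all TPM with shRNA-CON on day 5, between 1.51% and 2.03% with shRNA-RUS, and between 1.59% and 1.78% and between 1.61% and 1.76% on day 7. Their starts are shown with the core of the metal response element in capitals, the letters TGCNCNC on either strand, as RefSeq windows of build GRCm38.p6 on the plus strand, 250 bases before and 30 after the start: chr8:94178839-94179118 for Mt1, chr8:94172368-94172647 for Mt2 and chr8:94152357-94152636 for Mt3.
Mt1: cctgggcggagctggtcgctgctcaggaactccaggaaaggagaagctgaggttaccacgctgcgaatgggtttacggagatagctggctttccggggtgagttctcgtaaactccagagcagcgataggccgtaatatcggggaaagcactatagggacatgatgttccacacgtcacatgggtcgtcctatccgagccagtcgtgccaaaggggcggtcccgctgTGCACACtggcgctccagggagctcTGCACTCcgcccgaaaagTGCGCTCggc
Mt2: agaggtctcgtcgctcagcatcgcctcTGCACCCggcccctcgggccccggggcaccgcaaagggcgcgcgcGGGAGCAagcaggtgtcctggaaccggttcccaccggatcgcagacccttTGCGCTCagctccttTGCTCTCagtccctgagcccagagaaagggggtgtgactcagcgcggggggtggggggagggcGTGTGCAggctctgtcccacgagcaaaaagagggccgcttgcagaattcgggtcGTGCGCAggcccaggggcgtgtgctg
Mt3: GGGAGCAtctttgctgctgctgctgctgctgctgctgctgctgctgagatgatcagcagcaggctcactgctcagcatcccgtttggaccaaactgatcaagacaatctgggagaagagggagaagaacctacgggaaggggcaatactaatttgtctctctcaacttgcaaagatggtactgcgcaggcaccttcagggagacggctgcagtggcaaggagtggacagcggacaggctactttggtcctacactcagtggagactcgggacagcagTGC
Counted over the whole window, Mt1 and Mt3 held 3 matches each and Mt2 held 6; of those of Mt3, 1 runs past the bases shown and 1 lies beyond them. At least 3 matches were found in 7.10% of all windows, and at least 1 in 51.0%; among the 43 windows of the 39 genes, 18 (41.9%) held at least 1. Mt2 also held the antioxidant response element core, at position -79 on the strand of the gene, which is not capitalized and overlaps none of the marked stretches.

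Mt1 had 4582, 4301, 4845 and 5304 scaled TPM with shRNA-CON and 9137, 8937, 9037 and 5772 with shRNA-RUS on day 5. On day 7 Mt1 had 6330.3, 6303, 6271 and 5462 with shRNA-CON and 6113, 6270.1, 6801 and 7138 with shRNA-RUS. Replicates 1 to 3 of shRNA-RUS on day 5 stood far above the controls and replicate 4 just above the highest of them, and the rise was 0.77 ± 0.15 (adjusted p = 0.00442); on day 7 the groups overlapped (0.11 ± 0.066, adjusted p = 0.198). Mt2 had 3747, 4053, 4111 and 4258 with shRNA-CON and 5934, 6193, 6179 and 4449 with shRNA-RUS on day 5. On day 7 Mt2 had 7571, 7243, 6902 and 6885 with shRNA-CON and 6901, 6714, 6976 and 7266 with shRNA-RUS. It rose on day 5 by 0.48 ± 0.11 (adjusted p = 0.0102), again least in replicate 4, and overlapped on day 7 (-0.038 ± 0.044, adjusted p = 0.517), when it was called lower under quantile normalization (-0.21, adjusted p = 0.0108). Mt3, the metallothionein known mainly from the brain, had 3925, 4375, 4059 and 4452 with shRNA-CON and 5906, 6335, 6410.0 and 4773 with shRNA-RUS on day 5. On day 7 Mt3 had 4089.6, 3936, 3698 and 3610.1 with shRNA-CON and 3144, 3203, 3257 and 3035 with shRNA-RUS. It rose on day 5 by 0.47 ± 0.10 (adjusted p = 0.00760) and fell on day 7 by 0.28 ± 0.046 (adjusted p = 7.87e-04), in both cases without overlap. The day 5 calls of Mt2 and Mt3 were lost under quantile normalization, with log2 fold changes of 0.18 and 0.15. An exon of Mt2 overlaps the opposite-strand gene Gm45774.

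The export pumps Abcc1 and Abcc4, which carry glutathione conjugates and other organic anions out of the cell, went opposite ways on day 7. Abcc1 had 17.0, 15.1, 16.2 and 15.5 scaled TPM with shRNA-CON and 10.04, 10.6, 9.79 and 12.6 with shRNA-RUS on day 5. On day 7 Abcc1 had 18.9, 17.4, 17.7 and 18.4 with shRNA-CON and 12.3, 12.7, 13.9 and 12.5 with shRNA-RUS. It was below all controls on both days and fell by 0.57 ± 0.089 (adjusted p = 0.00125) and 0.49 ± 0.054 (adjusted p = 5.33e-05). Abcc4 had 16.3, 16.0, 17.2 and 16.4 with shRNA-CON and 14.5, 16.2, 16.7 and 20.6 with shRNA-RUS on day 5. On day 7 Abcc4 had 11.8, 10.7, 11.5 and 11.04 with shRNA-CON and 17.3, 18.7, 18.5 and 17.1 with shRNA-RUS. The day 5 libraries were intermixed, with replicate 4 of shRNA-RUS the highest (0.035 ± 0.099, adjusted p = 0.822), and the gene rose on day 7 without overlap (0.66 ± 0.055, adjusted p = 9.07e-06).

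Over both days, 8 of the 39 genes were higher on each day, 2 were lower on each day (Ftl1 and Abcc1), 6 were higher on day 5 and lower on day 7 (Cbr3, Gpx4, Gstm1, Gstp1, Mt3 and Sod1), and 2 were called on neither day (Gpx1 and Gss). Among 9156 genes averaging 10 TPM or more on both days, 18.5% were higher on each day, 14.6% were lower on each day, 3.59% were higher on day 5 and lower on day 7, and 17.6% were called on neither. Of the 6 genes higher on day 5 and lower on day 7, Gstm1 kept both calls in all 9 other settings, and the day 5 call held in 8 of 9 for Mt3, 7 of 9 for Cbr3 and Sod1, 4 of 9 for Gpx4 and 3 of 9 for Gstp1; the day 7 call of Gpx4 held in 6 of 9. Whether the knockdown effect differed between the days was tested in 1 fit over all 16 libraries. The effect was lower on day 7 for 20 genes and higher for 7, and 12 did not pass; among all 23789 genes tested, 14.6% were called lower and 15.2% higher, and among those averaging 10 TPM or more 25.5% and 21.7%. Gstm2 (-1.46 ± 0.10, adjusted p = 5.10e-07), Gstp1 (-0.80 ± 0.087, adjusted p = 1.37e-05), Gstm5 (-0.76 ± 0.090, adjusted p = 2.77e-05) and Txn1 (-0.75 ± 0.079, adjusted p = 1.02e-05) were among the lower ones. Among the higher ones were Abcc4 (0.62 ± 0.11, adjusted p = 9.91e-04), Mgst1 (0.54 ± 0.078, adjusted p = 1.43e-04), Hmox1 (0.53 ± 0.063, adjusted p = 2.98e-05), Aox1 (0.52 ± 0.10, adjusted p = 0.00171) and Srxn1 (0.42 ± 0.063, adjusted p = 1.94e-04). For all 3 metallothioneins the effect was lower on day 7, with differences of -0.67 for Mt1, -0.53 for Mt2 and -0.76 for Mt3 on the log2 scale, although the call of Mt1 was lost under quantile normalization (-0.31). With TPM as deposited, in which the difference of the median gene was 0.19, 16 genes were lower and 9 higher, and with quantile normalization 13 and 9. Of all genes, 8.63% were lower and 24.0% higher in TPM as deposited, and 14.1% and 15.0% under quantile normalization. For Gpx4, quantile normalization turned the day 7 direction.

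Between day 5 and day 7, when the differentiation medium replaced the growth medium, most of these genes fell with either shRNA. With shRNA-CON 28 of the 39 were lower on day 7, 1 was higher and 10 did not pass, where 21.6% of all genes were called lower and 26.9% higher, and 34.7% and 28.3% of genes averaging 10 TPM or more. With shRNA-RUS 31 were lower, 2 were higher and 6 did not pass, against 25.8% lower and 35% higher of all genes, and 41.8% and 36.0% of those averaging 10 TPM or more. The median log2 fold change of the 39 was -0.41 with shRNA-CON and -0.64 with shRNA-RUS, where that of all genes was 0.067 and 0.13. In TPM as deposited, in which the median gene was higher on day 7 by 0.20 and 0.41, the counts were 24 lower and 4 higher with shRNA-CON and 24 and 9 with shRNA-RUS, and the medians of the 39 were -0.26 and -0.32. Of all genes, 14.4% were then lower and 36.0% higher with shRNA-CON, and 14.9% and 49.6% with shRNA-RUS. Under quantile normalization these medians were -0.32 with shRNA-CON and -0.31 with shRNA-RUS, so that the larger decrease with shRNA-RUS was not seen there. With shRNA-CON the decreases beyond 1 on the log2 scale were those of Nqo1 (-1.54 ± 0.073, adjusted p = 1.45e-10), Fth1 (-1.54 ± 0.074, adjusted p = 1.63e-10), Blvrb (-1.23 ± 0.15, adjusted p = 4.25e-06), Gpx1 (-1.04 ± 0.10, adjusted p = 5.11e-07), Gstm1 and Prdx6. These 6 genes fell beyond 1 with shRNA-RUS too, with log2 fold changes of -2.01 for Nqo1, -1.30 for Fth1, -1.72 for Blvrb and -1.40 for Gpx1. With shRNA-RUS Gstm2 (-2.35 ± 0.073, adjusted p = 1.27e-12), Gstm5 (-1.67 ± 0.064, adjusted p = 1.25e-11) and Gstp1 (-1.50 ± 0.061, adjusted p = 2.56e-11) fell as well, and Mt3 (-1.12 ± 0.079, adjusted p = 7.52e-09), Gsta4 (-1.06 ± 0.068, adjusted p = 2.70e-09), Cbr3 and Gpx8 fell by just over 1. Mt2 was the 1 gene called higher on day 7 with shRNA-CON, and Slc7a11 and Aox1 were the 2 with shRNA-RUS. Beside them, 8 of 10 microglia, 5 of 8 oligodendrocyte lineage and 7 of 9 neuron markers were higher on day 7 with shRNA-CON, and 7 of 10 astrocyte markers were lower. With shRNA-RUS 5 of 10 microglia markers were higher and 1 lower, 6 of 8 oligodendrocyte lineage and 8 of 9 neuron markers were higher, and 7 of 10 astrocyte, 6 of 9 neural stem cell and radial glia and 4 of 5 proliferation markers were lower, where 3 of 9 and 0 of 5 of the last 2 lists were lower with shRNA-CON; their part in these changes was not tested. These changes include the change of medium, and day and medium cannot be told apart; the tables of the days were deposited separately, with TPM set within each library, and the factors of this fit (0.845 to 1.10) are what puts them on 1 scale.

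**Figure D4:**
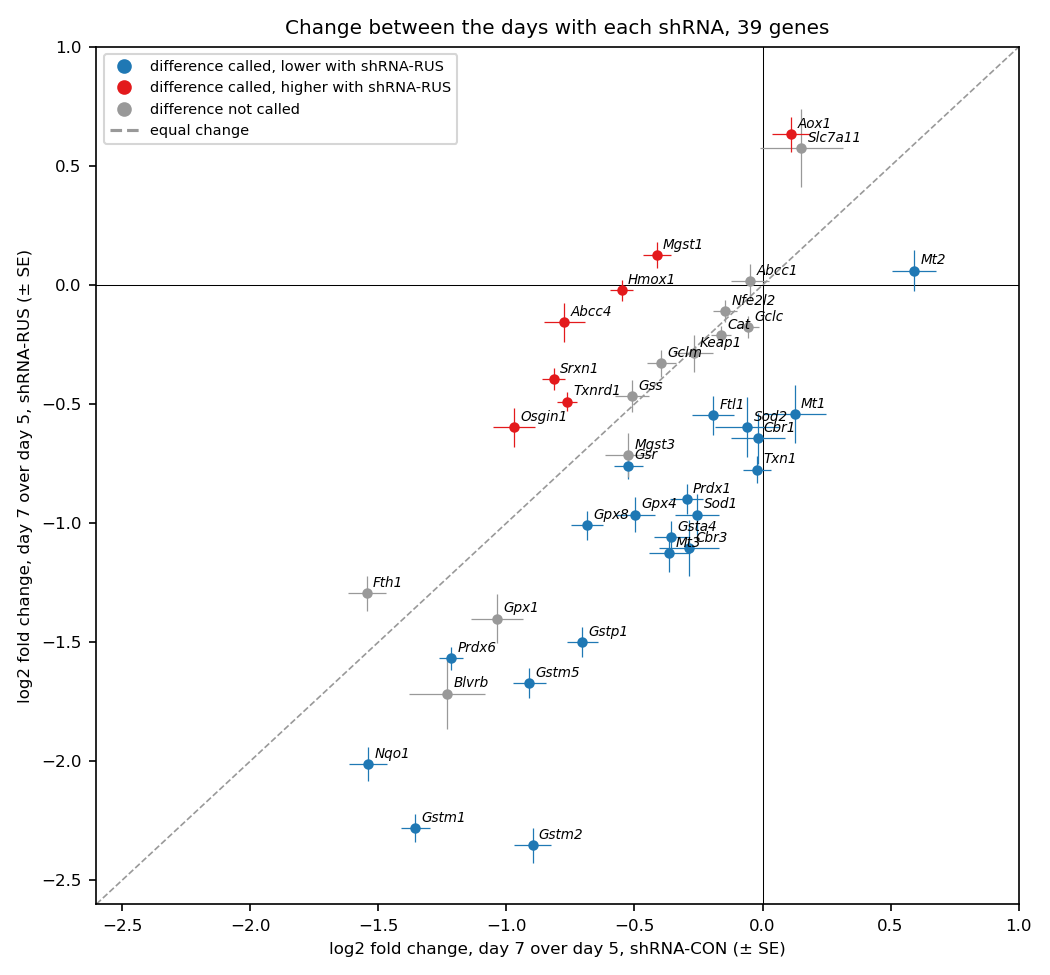
Log2 fold change of the 39 genes from day 5 to day 7 with shRNA-CON (horizontal) and with shRNA-RUS (vertical), with SE bars; blue marks genes whose difference was called lower with shRNA-RUS, red those called higher, grey those not called, and the dashed line is equal change. Most points lie below 0 on both axes; 20 are blue and below the dashed line and 7 are red and above it.

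Of 73 other genes of the same pathways, 72 were tested. On day 5, 19 were higher and 17 lower, with a median log2 fold change of 0.042, and on day 7, 21 were higher and 32 lower, with a median of -0.16. Among all genes 14.8% were higher and 17.9% lower on day 5 and 23.4% and 25.8% on day 7, and among those averaging 10 TPM or more 28.4% and 20.1% on day 5 and 37.0% and 34.7% on day 7. The regulators among them were higher or not called, 3 of 9 higher on day 5 and 6 of 9 on day 7, and none was lower. Of the 17 transferases and genes of glutathione turnover 12 were lower and 2 higher on day 7, and of 15 thioredoxin and glutaredoxin genes 7 were higher and 6 lower. The 10 genes of superoxide and peroxide removal had 3 higher and 6 lower on day 7, the 14 detoxifying and exporting genes tested had 3 and 7, and the 7 genes of iron and metal handling had 0 and 1. On day 5 the counts of these 5 groups, higher and lower, were 2 and 6, 6 and 2, 4 and 1, 3 and 6, and 1 and 2.

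A change of at least 1 on the log2 scale was called for 9 of these genes. Gstm6, a further mu-class transferase, went from 18.6 ± 1.24 to 4.41 ± 0.886 scaled TPM (SD, n = 4) on day 7 (-2.07 ± 0.13, adjusted p = 1.49e-06). The theta-class transferases fell too, Gstt1 from 58.2 ± 3.40 to 25.1 ± 0.478 (-1.21 ± 0.047, adjusted p = 1.58e-07) and Gstt2 from 1.52 ± 0.234 to 0.529 ± 0.195 (-1.41 ± 0.24, adjusted p = 9.31e-04). Mu-class genes can share reads with each other. Among the aldo-keto reductases, Akr1b3 fell from 165 ± 5.30 to 73.3 ± 3.20 (-1.17 ± 0.041, adjusted p = 1.11e-07) and Akr1b8 from 5.54 ± 0.642 to 1.77 ± 0.146 (-1.59 ± 0.11, adjusted p = 2.61e-06). The carbonyl reductase Cbr4 fell from 44.0 ± 2.25 to 20.9 ± 1.73 (-1.07 ± 0.066, adjusted p = 1.50e-06), and the peroxiredoxin Prdx2 from 718 ± 45.5 to 353 ± 12.4 (-1.02 ± 0.048, adjusted p = 3.50e-07). The gene that rose by more than 1 was Selenop, which encodes the selenium carrier selenoprotein P, from 63.3 ± 4.15 to 153 ± 7.67 (1.27 ± 0.054, adjusted p = 2.36e-07). On day 5 the sole change of this size was that of Mgst2, from 1.97 ± 0.591 to 0.835 ± 0.322 (-1.17 ± 0.28, adjusted p = 0.0103).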

How the data were processed

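Values came from the tables that the authors deposited, 1 per day, with 4 shRNA-CON and 4 shRNA-RUS libraries each. Per the labels and the study's methods, polyA RNA was sequenced on an Illumina NextSeq, reads were aligned to mm10 with STAR and quantified with RSEM, and the deposited values are TPM per gene; versions are not given in the sources used here, nor is strandedness. The authors' own comparison columns (a mean signal, log2 fold changes with their error, a test score, p-values and adjusted p-values) were not used. The 3 lines of the day 5 table without a gene name held at most 0.386% of all TPM and were left out, as were 106 lines whose symbols differ between the tables from the fit over both days.

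Each library was divided by the median of its ratios to the geometric mean of the libraries, taken over genes at 1 TPM or more in all of them. Genes whose mean reached 0.1 TPM were kept and tested with limma 3.58.1 (R 4.3.3; trend, log2(scaled TPM + 0.1), two-sided) per day, and over all 16 libraries for changes between days, with Benjamini-Hochberg adjustment over all genes. Depth in reads is unknown, since the 16 libraries hold TPM alone, and each sums to about 1000000. The labels number 4 libraries per group and do not say whether the cell preparations were separate; p-values measure the spread between these libraries. Motifs were searched with Python 3.11.15 in RefSeq promoter windows, and gene positions come from GENCODE vM21 (GRCm38).

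The 39 genes, the other lists and the tests were chosen with earlier results of these data known. Given in full are 18 genes fixed by role and every other of the 39 called in a knockdown comparison with a log2 fold change of at least 0.5 at a mean of at least 1 TPM, 31 in all; the other 8 are given by group means. Of other pathway genes, those with a called change of at least 1 are named. The other settings tried were pseudocounts of 1 and of 0.01, filtering at 1 TPM and not at all, TPM as deposited, quantile normalization, the 75th percentile, no trend, a replicate block, and each library left out.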

Additional observations from a re-analysis of the deposited data

Results flagged for a closer look

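In 11 of the 124 groups of 4 libraries of the genes given in full, 1 library stood far from the other 3 by Dixon's test at the 95% level, and chance alone marks about 5 percent of groups. In the shRNA-RUS libraries of day 5, replicate 4 was the low one for Gpx4 (929 scaled TPM), Blvrb (53.6), Mt1 (5772) and Mt2 (4449). In the shRNA-CON libraries of day 7, replicate 4 was high for Nfe2l2 (257) and Slc7a11 (2.51) and low for Mt1 (5462). The other single libraries of day 7 were replicate 3 of shRNA-CON for Gclm (lowest, 117), replicate 2 of shRNA-CON for Hmox1 (lowest, 139), replicate 3 of shRNA-RUS for Sod1 (highest, 509) and replicate 1 of shRNA-RUS for Fth1 (lowest, 4218).

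The knockdown effect differed between day 5 and day 7 for 21 of the 31 genes given in full, by limma's test of the difference with adjustment over all genes. It was lower on day 7 for 14 of them. Gstm2 differed by -1.46 ± 0.10, adjusted p = 5.10e-07, Gstp1 by -0.80 ± 0.087, adjusted p = 1.37e-05, Mt3 by -0.76 ± 0.11, adjusted p = 1.70e-04, Gstm5 by -0.76 ± 0.090, adjusted p = 2.77e-05 and Txn1 by -0.75 ± 0.079, adjusted p = 1.02e-05. Sod1 differed by -0.71 ± 0.12, adjusted p = 5.57e-04, Gsta4 by -0.70 ± 0.096, adjusted p = 9.08e-05, Mt1 by -0.67 ± 0.17, adjusted p = 0.00880, Prdx1 by -0.60 ± 0.089, adjusted p = 1.72e-04 and Sod2 by -0.54 ± 0.18, adjusted p = 0.0315. Mt2 differed by -0.53 ± 0.12, adjusted p = 0.00425, Nqo1 by -0.47 ± 0.10, adjusted p = 0.00303, Gpx4 by -0.47 ± 0.11, adjusted p = 0.00365 and Ftl1 by -0.36 ± 0.12, adjusted p = 0.0303. The effect was higher on day 7 for Abcc4 (0.62 ± 0.11, adjusted p = 9.91e-04), Mgst1 (0.54 ± 0.078, adjusted p = 1.43e-04), Hmox1 (0.53 ± 0.063, adjusted p = 2.98e-05), Aox1 (0.52 ± 0.10, adjusted p = 0.00171), Srxn1 (0.42 ± 0.063, adjusted p = 1.94e-04), Osgin1 (0.37 ± 0.12, adjusted p = 0.0232) and Txnrd1 (0.27 ± 0.055, adjusted p = 0.00180). The calls of Ftl1, Sod2 and Osgin1 were lost without some single libraries: Osgin1 without replicate 1 of shRNA-RUS of day 5 (0.32, adjusted p = 0.0505), Ftl1 without any 1 of 8 (adjusted p from 0.0509 to 0.0650) and Sod2 without any 1 of 9 of the 16 libraries (adjusted p from 0.0531 to 0.0681). Of the 9 other settings, 4 ended the call of Ftl1 (no filter, TPM as deposited, quantile normalization and the 75th percentile), 3 that of Sod2 (no filter, TPM as deposited and quantile normalization) and 1, quantile normalization, those of Gpx4 and Mt1.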

How the results depend on the processing

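Under the 9 other settings, 842 log2 fold changes kept their direction and their side of the threshold, 50 lost and 9 gained a call, and 17 turned; counts of calls that stayed within 1.5 times the count reported are not listed. With TPM as deposited, the knockdown calls of day 5 were 13 higher and 5 lower, where 7.83% of all genes were higher and 26.7% lower. On day 7 against day 5, 4 genes were then higher with shRNA-CON and 9 with shRNA-RUS, where 36.0% and 49.6% of all genes were higher. Quantile normalization gave 15 calls on day 5, 11 of them higher, 3 genes higher on day 7 with shRNA-CON and 5 with shRNA-RUS, and 13 genes whose knockdown effect was lower on day 7. Scaling to the 75th percentile gave 8 genes higher with shRNA-RUS on day 7, where 19.9% of all genes were higher. The causes of these shifts were not tested.

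Among the 31 genes given in full, directions turned for small differences, all but that of Gpx4 not called. Turns of the other 8 genes under these settings are not listed. On day 5 the log2 fold changes in TPM as deposited were -0.056 for Nfe2l2, -0.095 for Gclm, -0.033 for Txn1, -0.068 for Sod2, -0.016 for Gstm5 and -0.12 for Abcc4. Quantile normalization gave -0.071 for Nfe2l2, 0.13 for Slc7a11, -0.066 for Gclm, -0.080 for Txn1, -0.12 for Prdx1, -0.040 for Sod2 and -0.034 for Gstm5 on day 5 and 0.0045 for Gpx4 on day 7. Scaling to the 75th percentile gave -0.014 for Gclm and -0.042 for Abcc4 on day 5 and -0.053 for Gpx1 on day 7.

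Leaving out each library in turn gave 17 to 26 calls on day 5 (14 to 23 higher and 3 lower), 27 to 30 on day 7 (12 to 13 higher, 15 to 17 lower), 27 to 31 between the days with shRNA-CON, 33 to 35 with shRNA-RUS and 23 to 29 for the difference of the effect. The log2 fold change changed sign for Abcc4 (-0.059 to 0.11), Gstm2 (-0.079 to 0.0092), Slc7a11 (-0.17 to 0.076) and Sod2 (-0.0018 to 0.21) on day 5, for Gss on day 5 without replicate 3 of shRNA-CON (0.012) or replicate 4 of shRNA-RUS (0.026), and for Gpx1 (-0.031 to 0.029) on day 7. With the replicate number as a block, 14 genes were called on day 5, 11 of them higher, where 9.88% of all genes were higher and 12.1% lower. The calls of Blvrb, Cat, Cbr3, Fth1, Gpx4, Gstp1, Keap1, Prdx6 and Sod1 were lost. For libraries that share a number, the correlations of their deviations ranged from -0.23 to 0.11, and not every library correlated best with its own number. The labels do not say whether such libraries shared a cell preparation, and this was not tested. The number of reads behind each TPM value is unknown, and TPM moves with what other genes take up; 4 libraries of a group limit which differences pass the test.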
